A study of Mus musculus with 144 samples.

Results

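Classical immediate early genes were followed in primary mouse hepatocytes from 2 h to 120 h after the plating medium was replaced. They were *Fos*, *Fosb*, *Jun*, *Junb*, *Jund*, *Egr1*, *Atf3*, *Myc*, *Ier2* and *Dusp1*. They were taken by name, through their Ensembl identifiers, and make up 10 of the 55359 genes in the count tables. All 10 passed the filter on low counts in every comparison described here. The hepatocytes came from the livers of male mice with an age label of 28 days. The strain labels are C57BL/6NCrl, here called labelled WT, and Pkm-delta-DRE, here called labelled PkmΔDRE. The PkmΔDRE mice carry a CRISPR deletion of a dioxin response element, a short DNA motif bound by the aryl hydrocarbon receptor, in an intron of *Pkm* in all cells of the body. *Pkm* encodes pyruvate kinase muscle isozymes, which act in glycolysis. Cells of both labels attached for 3 h in medium with 5% serum and 100 nM dexamethasone. They then received serum-free medium with insulin, transferrin, selenium and again 100 nM dexamethasone. With it came either the vehicle DMSO or 10 nM TCDD (2,3,7,8-tetrachlorodibenzo-p-dioxin), a persistent agonist of that receptor. RNA was taken at 9 hours from 2 h to 120 h. The 36 combinations of label, treatment and hour had 4 libraries each. No freshly isolated or unplated liver was measured, so the first value of every gene is that at 2 h.

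Immediate early genes are transcribed within minutes of a stimulus from factors that are already present in the cell, without the need for new protein. Growth factors, serum, stress and tissue dissociation engage MAP kinases, and these activate serum response factor with its ternary complex partners, and CREB and ATF proteins, at the promoters of immediate early genes. Their messages are mostly short-lived, and the proteins they encode include subunits of the AP-1 transcription factor and feedback inhibitors that end the signal. In liver the same genes respond to partial hepatectomy and to enzymatic isolation of hepatocytes.

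The promoters of 7 members were found in the RefSeq table of mouse promoters (build GRCm38.p6), and those of *Egr1*, *Myc* and *Ier2* were not. Of these 7, 5 held TGACG, the core of the cyclic AMP response element bound by CREB and ATF proteins, or its complement CGTCA, in the window from 250 bases before to 50 bases after the start site. That motif stood in 20.8% of 32841 promoter windows of the same length. The GC box GGGCGG, searched on both strands, was also found in 5 of the 7 and in 35.7% of all windows. The window listed for *Jund*, chr8:70697489-70697788, ends before the annotated start of the gene at 70698949, and it held neither motif. The 5 promoters with TGACG are shown because CREB and ATF proteins act on immediate early genes and ATF3, itself a member, belongs to that family. Each sequence is the 250 bases before the start site, 5′ to 3′ on the gene's strand, and capitals mark that motif on either strand or the full palindrome TGACGTCA.
Fos, chr12:85473640-85473889, plus strand: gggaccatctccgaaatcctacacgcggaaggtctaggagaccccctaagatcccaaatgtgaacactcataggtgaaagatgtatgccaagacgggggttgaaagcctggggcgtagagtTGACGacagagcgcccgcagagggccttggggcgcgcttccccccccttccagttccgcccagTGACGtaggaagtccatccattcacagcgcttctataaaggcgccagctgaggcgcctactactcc
Fosb, chr7:19310046-19310295, minus strand: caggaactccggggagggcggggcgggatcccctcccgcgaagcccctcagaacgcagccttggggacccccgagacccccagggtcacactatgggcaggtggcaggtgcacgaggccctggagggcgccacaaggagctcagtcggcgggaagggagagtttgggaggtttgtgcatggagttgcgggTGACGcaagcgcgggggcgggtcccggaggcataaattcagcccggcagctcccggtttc
Junb, chr8:84978749-84978998, minus strand: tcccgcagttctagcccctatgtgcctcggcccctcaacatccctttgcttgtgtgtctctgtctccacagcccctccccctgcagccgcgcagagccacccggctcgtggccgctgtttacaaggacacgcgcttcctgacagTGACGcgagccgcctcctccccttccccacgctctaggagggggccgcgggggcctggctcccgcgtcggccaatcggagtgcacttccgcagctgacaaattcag
Atf3, chr1:191183334-191183583, minus strand: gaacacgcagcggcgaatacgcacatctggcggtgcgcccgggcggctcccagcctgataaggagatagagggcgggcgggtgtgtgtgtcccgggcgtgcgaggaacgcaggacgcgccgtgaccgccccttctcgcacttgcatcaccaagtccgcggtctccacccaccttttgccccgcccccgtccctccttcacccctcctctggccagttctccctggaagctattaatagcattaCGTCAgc
Dusp1, chr17:26508473-26508722, minus strand: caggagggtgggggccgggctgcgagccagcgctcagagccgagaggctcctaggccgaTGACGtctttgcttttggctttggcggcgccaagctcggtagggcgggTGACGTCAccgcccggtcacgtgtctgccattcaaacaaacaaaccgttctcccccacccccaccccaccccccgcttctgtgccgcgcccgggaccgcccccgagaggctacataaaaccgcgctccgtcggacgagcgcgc

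*Fos* held the motif in a pair of copies, the nearer of which began 66 bases before its start site. The motif began 60 bases before that of *Fosb*, 106 bases before that of *Junb* and 7 bases before that of *Atf3*. *Dusp1* held it 3 times when both strands of its palindrome are counted, and this full TGACGTCA, which contains the shorter motif, was the only such palindrome among the 7 members, against 1.79% of all windows. GCGTG, the core of the dioxin response element, stood on either strand in the windows of *Fos*, *Fosb*, *Junb* and *Atf3* and in 32.4% of all windows. The AP-1 motif, TGACTCA or TGAGTCA, was in none of the 7 windows and in 5.2% of all, and the serum response motif CArG was in none and in 1.63% of all, both searched on both strands. A match is only a run of letters in this window, and a missing match says nothing about a factor. The members also differed in gene structure in the GRCm38 annotation. *Jun*, *Junb*, *Jund* and *Ier2* have a single exon, as do 4.79% of 20981 annotated genes. ATTTA, the core of AU-rich elements that shorten the life of messages, occurred at 5.8 per kb of 3′ untranslated region in *Dusp1*, 4.91 in *Fos*, 4.52 in *Myc* and 4.12 in *Junb*, at 3.24 in *Jun*, 2.53 in *Atf3*, 1.88 in *Jund* and 1.64 in *Egr1*, and at 0.466 in *Fosb*, and was absent from that of *Ier2*, against a median of 1.35 over 19752 genes. The transcripts of *Jund*, *Junb* and *Ier2* had the highest GC contents of the 10, at 67.1%, 62.6% and 60.9%, against a median of 49.2%.

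The libraries held 13588848 to 30719161 read pairs on genes, with a median of 18011825, and the 10 members held 0.0558% to 0.220% of them. Single library counts ran from 0 (*Fosb*) to 11666 (*Dusp1*). Values are given below as CPM, the read pairs of a gene scaled to a common library size, with library sizes adjusted by TMM, a trimmed mean of log ratios that sets most genes to no change. A pair of libraries labelled PkmΔDRE with vehicle stood apart. Replicate 4 at 4 h was nearest to the 96 h profiles (r = 0.977 against 0.773 with its own hour), and replicate 4 at 96 h was nearest to those of 4 h (0.98 against 0.768). Albumin, *Alb*, the main secreted protein of hepatocytes, was at 7957 CPM in the first, where its 3 companions had 92160 to 106900 CPM, and at 74150 CPM in the second, where its companions had 8983 to 12130 CPM. Calls that rest on these libraries are given with and without them. *Pkm* itself went against the labels. At 48 h it averaged 458 CPM with vehicle and 438 CPM with TCDD under the WT label, and 450 CPM and 934 CPM under the PkmΔDRE label, so the genotype labels are used here only as labels. Of the cell type markers, the sum of 6 hepatocyte markers had a median of 154300 CPM at 2 h and 8062 CPM at 120 h, and none of the 6 was at 0 in any library. The sum of 5 cholangiocyte markers had a median of 94.2 CPM at 2 h and 691 CPM at 120 h, 6 stellate cell and fibroblast markers 2.06 and 58.2 CPM, 6 macrophage markers 188 and 77.97 CPM, and 6 endothelial markers 356 and 86.8 CPM. Single markers of a sum differed widely. *Spp1* reached 1204 CPM and *Krt19* 300 CPM in a library, but *Epcam* no more than 6.68 CPM. *Col1a1* reached 134.5 CPM and *Acta2* 94.4 CPM, but *Des* no more than 6.68 CPM and *Lrat* 3.72 CPM. The sum of 4 neutrophil markers stayed at or under 2.58 CPM in every library, with *Ly6g* at 0 in 140 libraries and *S100a8* in 46. The part of these shifts in the results below was not tested. In bulk RNA, fewer cells of a type and less RNA per cell cannot be told apart, and the cells that carried a marker are not known.

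Levels were compared between genes per kb of all annotated exons of a gene. That length was 3.311 kb for *Dusp1* and 2.154 kb for *Atf3*, while the transcripts used for gene structure above had 1990 and 1984 bases. Levels per transcript length were not computed, and *Dusp1* would stand higher relative to *Atf3* on them. The order below therefore holds for the exon length only. On it *Atf3* stood highest in labelled WT hepatocytes with vehicle at 2 h, at 197 ± 51.5 CPM per kb (SD, n = 4 libraries, as for every SD below). *Dusp1* followed at 168 ± 24.8 CPM per kb and *Myc* at 159 ± 31.5 CPM per kb. *Jun*, *Ier2*, *Junb*, *Egr1* and *Jund* lay between 97.02 and 70.02 CPM per kb, and each of these 8 genes overlapped its neighbour in the order. *Fos* at 20.1 ± 6.65 CPM per kb and *Fosb* at 5.16 ± 2.11 CPM per kb were apart from all others and from each other. At 120 h *Junb* had moved from sixth to first, at 48.0 ± 12.3 CPM per kb, followed within overlapping ranges by *Myc* (46.1), *Dusp1* (45.6), *Jun* (40.2) and *Jund* (32.3). *Atf3* had gone from first to seventh, at 16.5 ± 4.65 CPM per kb, and *Fos* (1.86 CPM per kb) and *Fosb* (0.295 CPM per kb) remained last. The order at 2 h under the PkmΔDRE label was the same but for *Egr1* and *Junb*, which changed places within overlapping ranges, and at 120 h *Junb* was again first, at 50.6 ± 31.9 CPM per kb.

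In vehicle all members but *Jund* (4 h) and *Junb* (72 h) had their highest mean at 2 h under the WT label. With every library included, the 2 h mean was the highest for all 10 under the PkmΔDRE label. *Jund* there averaged 120.6 CPM at 2 h and 111.6 CPM at 4 h, or 128.3 CPM at 4 h without the library that stood apart. Relative to 2 h, edgeR called 65 of 80 gene and hour pairs lower in labelled WT hepatocytes with vehicle and 68 of 80 under the PkmΔDRE label, and none higher. A call needed an adjusted p-value below 0.05 (edgeR's quasi-likelihood test, Benjamini-Hochberg over all genes) and a fold of at least 1.5. Over all genes, 18.2% and 13.3% of the gene and hour pairs were called lower. No member was called lower at 4 h under the WT label (0.693% of all genes), 9 were at 8 h (16%), 8 at 12 h (17%) and all 10 at 24 h (20%). The later hours had 10 at 48 h (21%), 9 each at 72 h (22.8%) and 96 h (23.5%), and 10 at 120 h (24.5%). With the PkmΔDRE label 6 members were called lower at 4 h already (1.27% of all genes), 8 at 8 h (5.5%) and 9 at 12 h (11.9%). Each later hour had 9, while the share of all genes called lower was 15.2% at 24 h, then 17.3% (48 h), 19.5% (72 h) and 13.1% (96 h), and 22.7% on the last day. Without the libraries that stood apart the count was 3 at 4 h and 10 at 12 h, 24 h and 96 h, and the total stayed at 68. No share of all genes from that fit was set beside these counts, and the shares above include those libraries. Under the WT label the members' median log2 difference from 2 h went from −0.56 (4 h) through −1.56 (8 h) to −2.06 (120 h). The median of all genes was 0.21 by then. The labels do not say whether replicate libraries came from separate animals or cultures, so these p-values measure the spread between libraries only.

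**Figure D1:**
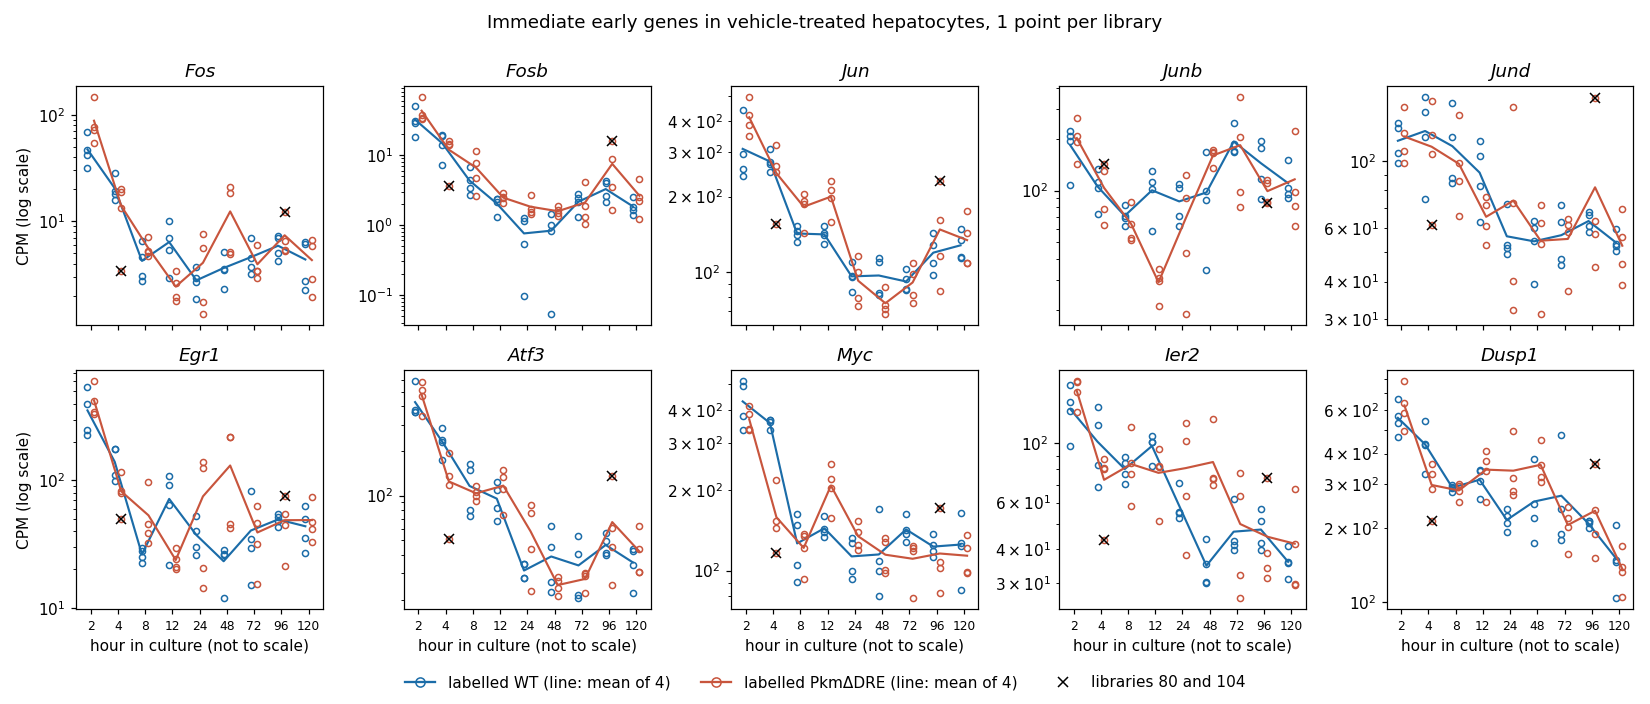
CPM of each member, on a log axis, against the hour after medium replacement in vehicle, with 1 point per library, lines through the means of 4 libraries for the labelled WT and PkmΔDRE hepatocytes, and crosses for the 2 libraries that stood apart. *Fos*, *Fosb*, *Egr1* and *Atf3* drop by most of their level between 2 h and 8 h, while *Junb* returns toward its first level at 72 h.

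*Fos* and *Fosb* encode Fos subunits of AP-1, which bind DNA only as partners of Jun proteins. In labelled WT hepatocytes with vehicle the 4 libraries at 2 h had 47.1, 42.04, 68.5 and 31.3 CPM of *Fos*. At 4 h they had 15.9 to 28.6 CPM, and at 8 h 6.56, 3.09, 4.62 and 2.72 CPM, so the groups at 2, 4 and 8 h did not overlap. The difference from 2 h was −3.46 on the log2 scale at 8 h (SE 0.39, adjusted p = 2.41e-08), a 10.98-fold lower level. The lowest mean, 2.79 ± 0.755 CPM, came at 24 h, 18.3-fold below 2 h, and at 120 h the libraries had 6.17, 2.72, 2.26 and 6.35 CPM. In labelled PkmΔDRE hepatocytes *Fos* began at 72.6, 54.8, 76.7 and 147 CPM and reached its lowest mean at 12 h, 2.44 ± 0.736 CPM, a difference of −5.26 (SE 0.648, adjusted p = 1.54e-06). At 4 h it was already lower there by 2.69 on the log2 scale (adjusted p = 0.00843), and by 2.34 (adjusted p = 0.0298) without the library that stood apart. *Fosb* was the least abundant member and fell the furthest in labelled WT hepatocytes, from 29.2, 18.4, 50.02 and 31.1 CPM at 2 h to 0.525, 0.0960, 1.26 and 1.14 CPM at 24 h. That is a log2 difference of −5.50 (SE 0.571, adjusted p = 1.44e-09). By 96 h *Fosb* stood at 2.13 to 4.28 CPM, above every library of 24 h and 48 h but below every library of 4 h. In labelled PkmΔDRE hepatocytes it went from 32.9, 34.3, 37.1 and 68.2 CPM at 2 h to 1.32 to 1.85 CPM at 48 h, a difference of −4.89 (SE 0.628, adjusted p = 1.68e-06). Its call at 4 h there, −1.89 (adjusted p = 0.0459), was lost without the library that stood apart (−1.56, adjusted p = 0.133).

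*Jun*, *Junb* and *Jund* encode the Jun subunits of AP-1, of which *Jund* is known as the most constantly expressed and *Junb* as a weaker activator than *Jun*. *Jun* held its level to 4 h in labelled WT hepatocytes with vehicle, at 295, 242, 443 and 258 CPM at 2 h and 308, 251, 270 and 274 CPM at 4 h. It then fell to 131.7 to 152 CPM at 8 h (log2 difference from 2 h −1.10, SE 0.153, adjusted p = 9.36e-07). At 72 h it was at 85.1 to 102.7 CPM and at 120 h at 113.8 to 149 CPM, with no overlap between those 2 groups. With the PkmΔDRE label *Jun* went from 348 to 498 CPM at 2 h to 68.1 to 87.2 CPM at 48 h, 6.00-fold lower, and stood at 108.8 to 176 CPM at 120 h. *Junb* was the member that came back. Under the WT label it went from 225, 208, 196 and 108.3 CPM at 2 h to 82.8, 71.3, 68.9 and 61.9 CPM at 8 h (−1.37, SE 0.329, adjusted p = 0.00143), and at 72 h it was at 171, 189, 248 and 168 CPM. The 72 h value differed from 2 h by −0.11 (95% interval −0.75 to 0.52). In labelled PkmΔDRE hepatocytes *Junb* dropped to 31, 34.6, 21 and 29.8 CPM at 12 h, 7.44-fold below 2 h (−2.90, SE 0.463, adjusted p = 4.32e-05), and at 72 h its libraries had 98.3, 79.9, 206 and 354 CPM. At 120 h the difference of *Junb* from 2 h was −0.91 under the WT label (SE 0.325, adjusted p = 0.0156) and −0.998 under the PkmΔDRE label (SE 0.435, adjusted p = 0.0557). The WT call at 120 h was lost without replicate 1 of the 2 h vehicle group (−0.79, adjusted p = 0.0525), and under the PkmΔDRE label the difference was called without replicate 2 at 2 h (−1.16, adjusted p = 0.0401) or replicate 1 at 120 h (−1.52, adjusted p = 0.00766). With every library included, *Jund* was the last member to be called lower in vehicle under both labels. In labelled WT hepatocytes it had 98.6 to 133.8 CPM at 2 h, 84.9 to 156 CPM at 8 h and 49.3 to 72.2 CPM at 24 h, the first hour at which it was called (−1.18, SE 0.228, adjusted p = 6.89e-05). With the PkmΔDRE label it was first called at 48 h (−1.27, SE 0.399, adjusted p = 0.0121). Without the libraries that stood apart it was called from 12 h (−1.02, adjusted p = 0.0188), and at 96 h (−1.39, adjusted p = 0.0026), where it was −0.76 (adjusted p = 0.134) with them.

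*Egr1*, *Atf3* and *Myc* encode transcription factors outside the Fos and Jun families. EGR1 is a zinc finger factor, ATF3 a stress-induced factor that represses many of its targets, and MYC drives ribosome production and growth. *Egr1* in labelled WT hepatocytes with vehicle fell from 396, 227, 543 and 248 CPM at 2 h to 25.1, 22.6, 29.3 and 28.0 CPM at 8 h, 13.3-fold (log2 −3.73, SE 0.439, adjusted p = 5.37e-08). It was at 91.6, 63.8, 108.9 and 21.6 CPM at 12 h, so 3 of the 4 libraries were above every library of 8 h and 1 was below. In labelled PkmΔDRE hepatocytes it fell from 419, 330, 344 and 604 CPM to 20.2, 29.5, 20.9 and 24.2 CPM at 12 h, 19.01-fold (−4.25, SE 0.664, adjusted p = 3.33e-05). The call there at 4 h, −2.41 (adjusted p = 0.0227), was lost without the library that stood apart (−2.19, adjusted p = 0.106). *Atf3* fell in 2 stages under the WT label, from 367, 366, 591 and 375 CPM at 2 h to 67.2 to 123.9 CPM at 12 h, and then to 34.9, 28.1, 27.7 and 34.6 CPM at 24 h. The 24 h level was 14.6-fold below that at 2 h (−3.87, SE 0.342, adjusted p = 5.2e-11). With the PkmΔDRE label *Atf3* went from 343 to 582 CPM to 51.2 to 193 CPM at 4 h (−1.70, adjusted p = 0.00895, without the library that stood apart) and 21.2 to 28.5 CPM at 48 h, 20.9-fold below 2 h (−4.39, SE 0.459, adjusted p = 1.19e-07). *Myc* kept its level to 4 h under the WT label, at 381, 338, 491 and 516 CPM at 2 h and 366, 336, 361 and 369 CPM at 4 h. At 8 h it was at 148, 162, 90.4 and 105.1 CPM (−1.75, SE 0.203, adjusted p = 3.8e-08), and no mean from 12 h to 120 h exceeded 144.1 CPM. *Myc* was lower at 4 h already under the PkmΔDRE label, at 145, 220, 154 and 116.3 CPM after 336 to 415 CPM at 2 h (−1.26, SE 0.241, adjusted p = 0.00434, or −1.10 and 0.0105 without the library that stood apart), and was at 157 to 252 CPM at 12 h, above every library of 8 h (93.02 to 136.6 CPM).

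*Ier2* encodes a small nuclear protein, and *Dusp1* a nuclear phosphatase that switches off p38, JNK and ERK kinases and is also known to be induced by glucocorticoids such as the dexamethasone of this medium. *Ier2* fell in labelled WT hepatocytes from 165, 132.6, 143.1 and 97.8 CPM at 2 h to 29.9 to 43.8 CPM at 48 h, 4.33-fold (log2 −2.12, SE 0.21, adjusted p = 3.88e-10). It was called lower at 8 h, at 70.2 to 89.3 CPM, missed the fold threshold at 12 h (−0.55, adjusted p = 0.0287), and was called at every later hour. With the PkmΔDRE label it had 131.2 CPM or more at 2 h, was first called at 12 h (−1.12, SE 0.371, adjusted p = 0.0273) and ended at 29.4 to 67.3 CPM. *Dusp1* fell in smaller steps than *Fos* or *Egr1*. Under the WT label it had 533, 466, 663 and 568 CPM at 2 h, 281, 293, 300 and 291 CPM at 8 h (−0.92, SE 0.226, adjusted p = 0.00166) and 146, 103.9, 149 and 206 CPM at 120 h (−2.05, SE 0.233, adjusted p = 5.01e-09). Under the PkmΔDRE label it went from 491 to 788 CPM at 2 h to 256 to 300 CPM at 8 h, was at 306 to 454 CPM at 48 h, above every library of 8 h, and ended at no more than 169 CPM at 120 h, 5.25-fold below 2 h. Its call at 4 h there (−1.13, adjusted p = 0.0161) was lost without the library that stood apart (−0.95, adjusted p = 0.0561).

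**Figure D2:**
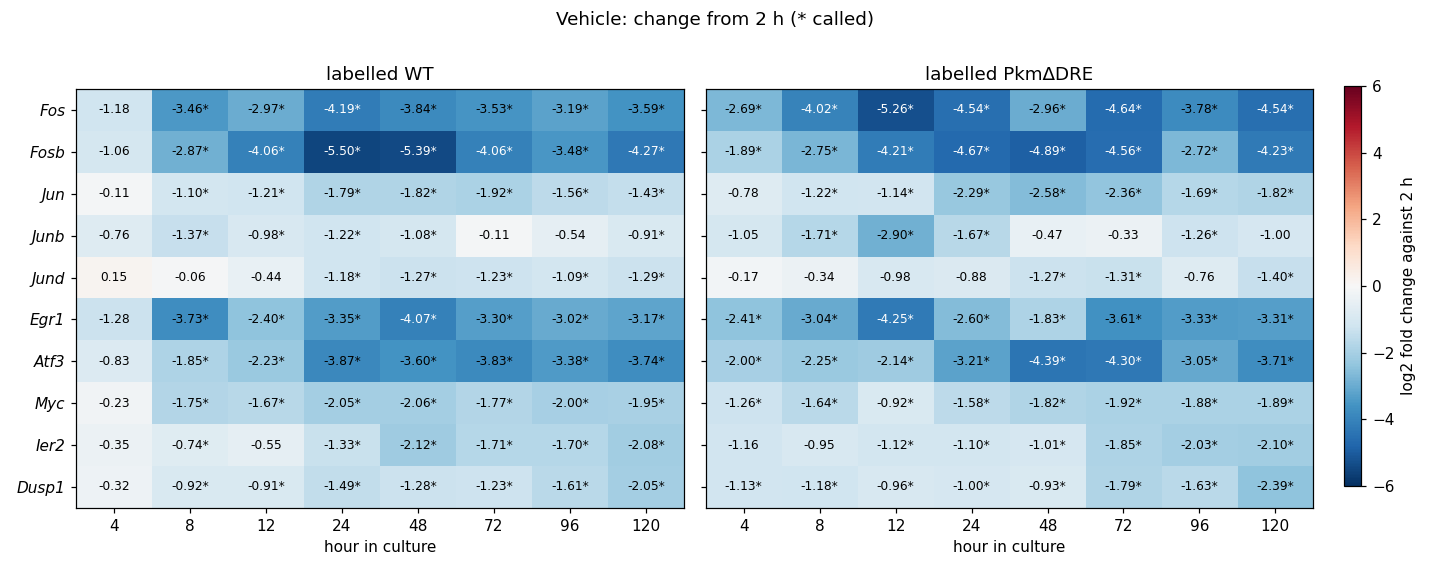
Heat map of the log2 difference from 2 h in vehicle for each member (rows) at each later hour (columns), for labelled WT and PkmΔDRE hepatocytes on the TMM scale, with an asterisk where edgeR called the difference. *Fosb* reaches −5.50 at 24 h under the WT label and *Fos* −5.26 at 12 h under the PkmΔDRE label, whereas *Junb* is at −0.11 and −0.33 at 72 h; on plain library totals the 120 h difference of *Junb* turns positive under both labels.

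The size of these differences depended on the scale. The TMM factor had a median of 0.666 at 2 h and 1.35 at 120 h. On plain library totals, an alternative chosen after the data were seen, the median of all genes itself moved by 1.43 on the log2 scale between 2 h and 120 h under the WT label and by 1.57 under the PkmΔDRE label, against 0.21 and 0.24 with TMM. On that scale *Fos* was still lower at 120 h by 2.36 and 3.18 under the WT and PkmΔDRE labels, *Fosb* by 3.08 and 2.90, *Atf3* by 2.52 and 2.33 and *Egr1* by 1.97 and 1.98. *Jun* (−0.23, adjusted p = 0.2) and *Jund* (−0.06, adjusted p = 0.75) no longer differed beyond the threshold under the WT label, and *Junb* turned to 0.29 (adjusted p = 0.391) and, under the PkmΔDRE label, to 0.33 (adjusted p = 0.495). The count of called pairs went from 65 to 47 and from 68 to 49, all lower except *Junb* at 72 h under the WT label. No share of all genes on that scale was set beside these counts. They therefore do not show whether the members were called lower more often than other genes there. Against the median of all genes every member was lower at 120 h on either scale and under both labels.

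Between successive hours the called falls lay mostly in 2 intervals under the WT label. None was called from 2 h to 4 h. Over that interval mean *Fos* went from 47.2 to 20.4 CPM and mean *Egr1* from 354 to 140 CPM. DESeq2 called both falls, as did edgeR with each library's trend on transcript GC content removed. From 4 h to 8 h *Egr1* fell by 2.45 on the log2 scale, *Fos* by 2.28, *Fosb* by 1.81, *Myc* by 1.53, *Atf3* by 1.02 and *Jun* by 0.99, 6 members against 10.1% of all genes called lower. From 12 h to 24 h *Atf3* fell by 1.64, *Fos* by 1.22, *Ier2* by 0.78, *Jund* by 0.74 and *Jun* by 0.59, 5 members against 3.25% of all genes. In that interval the calls of *Fos*, *Ier2*, *Jund* and *Jun* were lost in 1 fit of all libraries. Those of *Jund* and *Jun* were also lost with the GC trend removed. The only call upward was *Egr1* from 8 h to 12 h, by 1.33 (adjusted p = 0.041), where 3.84% of all genes were called higher. That call was lost with DESeq2's size factors in place of TMM, with no filter on low counts, with a covariate for read pairs outside genes and in 1 fit of all libraries. *Ier2* fell again from 24 h to 48 h, by 0.78, where 4.12% were called lower, a call also lost in 1 fit of all libraries. Under the PkmΔDRE label the falls of *Fos* (2.69), *Egr1* (2.41), *Atf3* (2.00), *Fosb* (1.89), *Myc* (1.26) and *Dusp1* (1.13) were called from 2 h to 4 h. Of these *Fosb*, *Egr1* and *Dusp1* were lost without the libraries that stood apart. The interval from 4 h to 8 h had no call there, and that from 12 h to 24 h had 1, *Jun*, lower by 1.15 (adjusted p = 0.0464) against 0.175% of all genes. Without the libraries that stood apart 8 steps in place of 7 were called, with no share of all genes from that fit set beside them. Those gained were the falls of *Atf3* (1.10, adjusted p = 0.0307) and *Myc* (0.69, adjusted p = 0.045) from 12 h to 24 h, the fall of *Atf3* (1.17, adjusted p = 0.014) from 24 h to 48 h and the rise of *Fos* (1.60, adjusted p = 0.036) in that same interval. Whether the timing of the falls differed between labels was not tested.

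The falls recurred in the TCDD libraries, which share no library with those in vehicle. The labels do not say whether cells with TCDD and cells with vehicle came from the same preparations. This recurrence is therefore not shown to be an independent repeat. Relative to 2 h with TCDD, 70 of 80 pairs were called lower under the WT label and 64 of 80 under the PkmΔDRE label, against 18.3% and 18.5% of all gene and hour pairs, and none was called higher. At 120 h *Fosb* was lower by 4.73 on the log2 scale under the WT label and by 4.38 under the PkmΔDRE label, *Fos* by 3.67 and 4.24, *Atf3* by 3.46 and 3.50, and *Egr1* by 3.50 and 3.06. *Junb* was lower by 1.55 under the WT label (SE 0.33, adjusted p = 0.000178) and by 0.93 under the PkmΔDRE label (SE 0.413, adjusted p = 0.0574). The late call of *Jund* did not recur in the same way. With TCDD it was first called lower at 8 h under the WT label, as were *Fos*, *Jun* and *Dusp1*. Under the PkmΔDRE label it was first called at 48 h, and *Ier2* at 72 h. Between successive hours 18 of 80 steps were called under the WT label and 13 of 80 under the PkmΔDRE label, against 4.1% and 7.12% of all gene and hour pairs. Those called upward were *Junb* (1.27, adjusted p = 0.0274) and *Ier2* (0.80, adjusted p = 0.0259) from 8 h to 12 h under the WT label, and *Egr1* (2.34, adjusted p = 0.00271) from 12 h to 24 h under the PkmΔDRE label.

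The libraries of 1 group did not always move together. Of the 36 groups, *Fosb* spanned more than 4-fold in 11, *Egr1* in 9, *Fos* in 6, *Junb* in 5, *Atf3* in 2 and *Jund* in 1, while *Jun*, *Myc*, *Ier2* and *Dusp1* did so in none. *Egr1* was divided in pairs under the PkmΔDRE label. At 24 h replicates 1 and 2 with vehicle had 14.2 and 20.5 CPM and replicates 3 and 4 had 140 and 124.8 CPM, and with TCDD the 4 had 19.9, 73.4, 122.4 and 126.5 CPM. At 48 h the order was turned round, with 218 and 217 CPM in the first pair with vehicle and 42.5 and 45.3 CPM in the second, and 192, 234, 31.1 and 39.1 CPM with TCDD. *Fos* at 48 h went with it, at 20.9, 18.5, 5.17 and 4.88 CPM with vehicle and 13, 17.6, 3.54 and 4.75 CPM with TCDD. *Junb* did so at 24 h (43.2, 18.9, 90.3 and 123.2 CPM with vehicle and 32.4, 31.9, 156 and 142.7 CPM with TCDD) but not at 48 h, where its vehicle libraries had 135.1 to 173 CPM. Under the WT label at 12 h, replicate 4 was the low library of *Egr1* in both treatments, at 21.6 CPM with vehicle and 19.1 CPM with TCDD. Replicates were numbered in library order and the labels name no batch, animal or day, so whether the divided libraries share one was not tested.

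**Figure D3:**
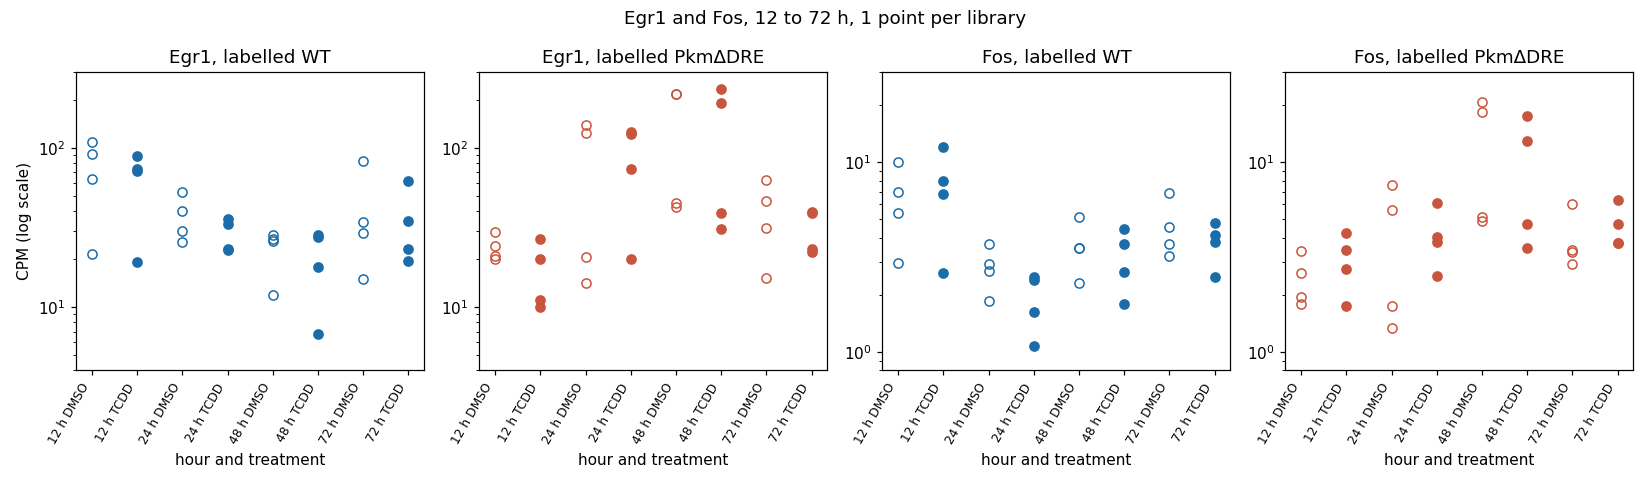
CPM of *Egr1* and *Fos* on a log axis in every library from 12 h to 72 h, by label and treatment. Under the PkmΔDRE label the *Egr1* libraries at 48 h form a pair at 217 to 218 CPM and a pair at 42.5 to 45.3 CPM with vehicle, and the TCDD libraries are divided in the same way.

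The second question of the design was whether TCDD changed these genes. In labelled WT hepatocytes 6 of 90 gene and hour pairs were called, all lower with TCDD, against 5.98% of all gene and hour pairs called in either direction. They lay at 8 h and 96 h, the hours at which the most genes of all were called. At 8 h *Junb* had 82.8, 71.3, 68.9 and 61.9 CPM with vehicle and 45.2, 36.3, 36.2 and 32.9 CPM with TCDD, without overlap (log2 −0.95, SE 0.157, adjusted p = 0.00139). *Ier2* had 70.2 to 89.3 CPM with vehicle and 51.6 to 56.8 CPM with TCDD (−0.61, SE 0.137, adjusted p = 0.00421), again without overlap. *Dusp1* had 281, 293, 300 and 291 CPM with vehicle and 224, 191, 181 and 197 CPM with TCDD (−0.59, SE 0.119, adjusted p = 0.00252), and these groups did not overlap either. *Jund* had 84.9 to 156 CPM with vehicle and 54.1 to 90.9 CPM with TCDD, with overlap (−0.73, SE 0.232, adjusted p = 0.0227). These 4 members stand against 13.6% of all genes called lower at 8 h and 37.4% called in either direction. At the same hour *Fos* (−0.10), *Egr1* (−0.10), *Jun* (0.07) and *Myc* (0.23) did not pass the test, and nor did *Fosb* (−0.69, adjusted p = 0.152) and *Atf3* (−0.48, adjusted p = 0.163).

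At 96 h *Fosb* had 4.28, 4.02, 2.13 and 2.61 CPM with vehicle and 2.00, 0.499, 0.969 and 1.30 CPM with TCDD, without overlap (−1.39, SE 0.402, adjusted p = 0.0221). *Junb* had 178, 196, 88.9 and 116.3 CPM with vehicle and 94.2, 57.98, 67.3 and 72.3 CPM with TCDD, with overlap (−0.94, SE 0.266, adjusted p = 0.0256). Both stand against 5% of all genes called lower and 15.1% called in either direction. *Dusp1*, at 199 to 213 CPM with vehicle and 133.6 to 145 CPM with TCDD, had the smallest adjusted p-value of any member under TCDD (−0.51, SE 0.072, adjusted p = 0.000768) but missed the fold threshold, as did *Jund* (−0.29, adjusted p = 0.0362) and *Myc* (−0.28, adjusted p = 0.0382).

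**Figure D4:**
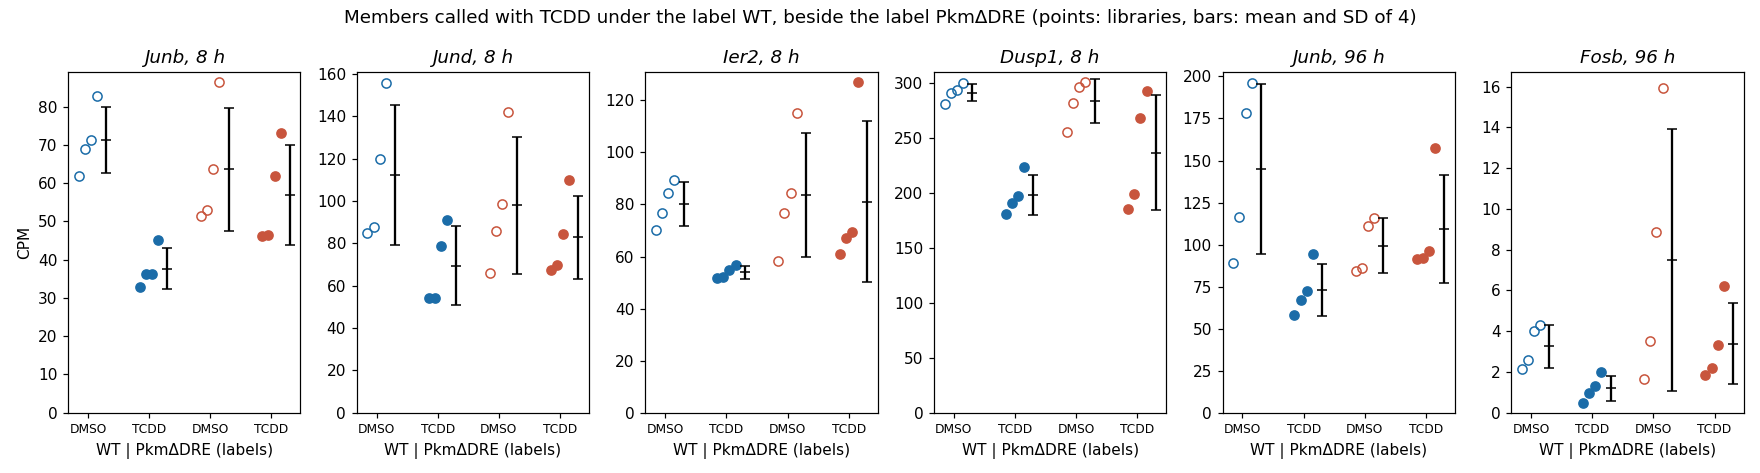
CPM in each library with vehicle and with TCDD for the 6 gene and hour pairs called in labelled WT hepatocytes, with the mean and SD of 4 libraries, beside the same groups under the PkmΔDRE label. *Junb*, *Ier2* and *Dusp1* at 8 h and *Fosb* at 96 h do not overlap between treatments under the WT label; with the trend of the differences on GC content removed, none of the 6 stays past the threshold.

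The TCDD calls rested on the processing. With each library's trend of log2 counts on transcript GC content removed, no member was called in labelled WT hepatocytes. At 8 h *Junb* was then at −0.37 (adjusted p = 0.0507), *Dusp1* at −0.28 (adjusted p = 0.0692), *Jund* at −0.05 (adjusted p = 0.843) and *Ier2* at −0.05 (adjusted p = 0.767), and at 96 h *Fosb* was at −1.16 (adjusted p = 0.0625) and *Junb* at −0.61 (adjusted p = 0.123). When each of the 8 libraries was left out in turn, *Junb* at 8 h kept its call every time. The call of *Jund* was lost without vehicle replicate 1 (−0.52) or 2 (−0.69) or TCDD replicate 3 (−0.62) or 4 (−0.62). The fold of *Ier2* went under the threshold without vehicle replicate 1 (−0.55) or 2 (−0.58) or TCDD replicate 3 (−0.58), and that of *Dusp1* without vehicle replicate 2 (−0.58) or TCDD replicate 2 (−0.57), 3 (−0.55) or 4 (−0.58). At 96 h *Fosb* was lost without vehicle replicate 1 (adjusted p = 0.0563) or TCDD replicate 2 (0.051) or 3 (0.0577), and *Junb* without vehicle replicate 1 (0.0594) or 2 (0.0559) or TCDD replicate 2 (0.0645) or 3 (0.0595). Other settings ended some of the calls as well. *Dusp1* and *Ier2* at 8 h were lost on plain library totals, with 1 surrogate variable and with no filter on low counts, *Jund* in the first and second of these, and *Junb* at 96 h in the last. In 1 fit of all libraries *Ier2* at 8 h and both calls at 96 h were lost. Signs of library quality and marker sums moved with TCDD in these groups too. At 8 h the share of read pairs that overlapped no gene was 4.89% to 5.99% with vehicle and 8.36% to 21.9% with TCDD, without overlap. TCDD replicate 1 had 48% of its pairs outside genes, and without it the 4 calls at 8 h remained. With a covariate for read pairs outside genes none of the 6 calls was lost. At 8 h the 6 macrophage markers summed to 127.3 to 180 CPM with vehicle and 58.65 to 106.5 CPM with TCDD, and the 6 hepatocyte markers to 73480 to 88360 CPM and 64080 to 70390 CPM. At 96 h the macrophage markers summed to 61.7 to 84.7 CPM with vehicle and 48.0 to 60.9 CPM with TCDD, and the 6 endothelial markers to 71.5 to 81.2 CPM and 44.02 to 62.5 CPM. The part of these shares and sums in the members' differences was not tested.

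**Figure D5:**
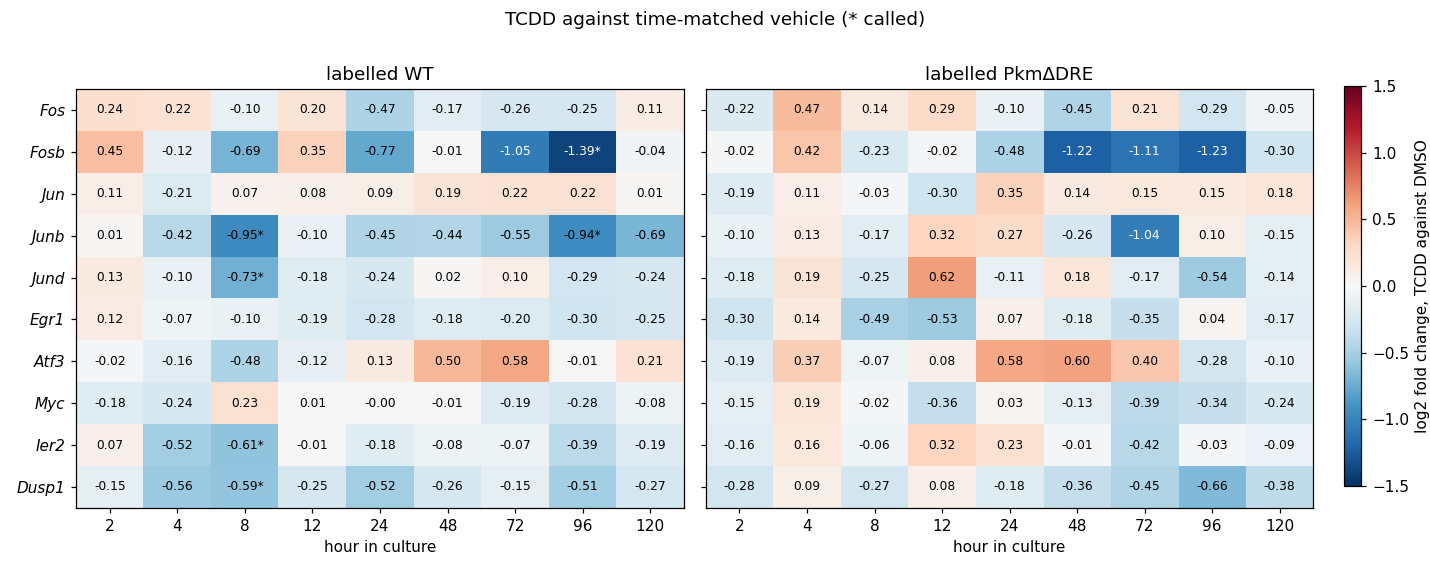
Heat map of the log2 difference of TCDD from vehicle for each member (rows) at each hour (columns), for labelled WT and PkmΔDRE hepatocytes, with an asterisk where edgeR called it. The 6 asterisks are all under the WT label, 4 at 8 h and 2 at 96 h, and none remains with the GC trend removed.

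Under the PkmΔDRE label none of 90 pairs was called by edgeR or DESeq2, against 0.281% of all gene and hour pairs called by edgeR. An unadjusted p under 0.05 was reached by 6 of the 90, a count with no share of all genes set beside it. The log2 differences there ran from −1.23 to 0.62. *Junb* at 8 h had 51.4 to 86.4 CPM with vehicle and 46.2 to 73.05 CPM with TCDD, and *Fosb* at 96 h 1.65 to 15.95 CPM and 1.87 to 6.20 CPM. The 15.95 CPM was in the library that stood apart, and without it the *Fosb* difference went from −1.23 to −0.50 (adjusted p = 0.83). No pair at 4 h or 96 h was called without those libraries either. Mapping also differed with TCDD under this label. At 48 h 4.57% to 6.87% of read pairs were unmapped with vehicle and 2.88% to 3.74% with TCDD. At 120 h the shares were 4.06% to 6.68% and 2.2% to 2.48%. Those groups did not overlap, nor did those at 96 h, but those at 72 h overlapped. At 24 h the TCDD replicates had 7.59%, 7.35%, 2.77% and 3.81%, and vehicle had 6.39% to 7.08%. Whether this bears on the members' differences from vehicle, or on their later differences from 2 h with TCDD, was not tested. The difference in TCDD response between labels was tested directly and called for none of the 90 pairs by either tool. EdgeR called it for 0.0016% of all gene and hour pairs. No share of all genes was set beside the 2 pairs with an unadjusted p under 0.05. Those were *Junb* at 8 h, where the response was 0.67 higher under the PkmΔDRE label (SE 0.255, adjusted p = 0.292), and *Junb* at 96 h, 1.01 higher (SE 0.362, adjusted p = 0.28), or 0.91 (adjusted p = 0.188) without the library that stood apart. The TCDD calls under the WT label are therefore not shown to differ from the responses under the PkmΔDRE label.

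The labels were also compared within vehicle at each hour. One of 90 pairs was called, against 0.429% of all gene and hour pairs. It was *Junb* at 12 h, at 112.1, 130, 102.2 and 57.9 CPM under the WT label and 31, 34.6, 21 and 29.8 CPM under the PkmΔDRE label (log2 −1.76, SE 0.259, adjusted p = 0.0142), an hour with 2.62% of all genes called lower. The call was lost without replicate 2 of the WT group (adjusted p = 0.0606) or replicates 3 (0.0561) or 4 (0.0876) of the PkmΔDRE group. *Egr1* (−1.55, adjusted p = 0.0556) and *Fos* (−1.36, adjusted p = 0.0815) at the same hour did not pass. These tests compare levels at 1 hour and not the change from 2 h. At 4 h *Myc* was lower by 1.21 under that label without overlap (336 to 369 CPM against 116.3 to 220 CPM), with an adjusted p of 0.769 (1.06 and 0.913 without the library that stood apart), and *Atf3*, *Egr1* and *Dusp1* were lower by 0.94, 0.81 and 0.59 with the same adjusted p. At 48 h *Egr1* was 2.55 higher (42.5 to 218 CPM against 11.9 to 28.3 CPM) and *Ier2* 1.32 higher (69.9 to 123.4 CPM against 29.9 to 43.8 CPM), without overlap and both with an adjusted p of 0.738. In all, 17 pairs had an unadjusted p under 0.05. DESeq2 called 6 pairs, *Junb*, *Egr1* and *Fos* at 12 h, *Myc* at 4 h, and *Egr1* and *Ier2* at 48 h, and 1 fit of all libraries called *Myc* at 4 h and *Egr1* and *Ier2* at 48 h beside *Junb* at 12 h. Those fits included the library that stood apart at 4 h. No share of all genes was set beside these counts or the 17 pairs. They therefore do not show whether the members differed between labels more often than other genes.

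Related gene lists in vehicle showed the company in which the members moved. At 120 h against 2 h, 24.5% of all genes were called lower and 33.4% higher under the WT label, and 22.7% and 26.8% under the PkmΔDRE label. Of 15 other immediate early transcription factors 13 were tested, and 8 fell under both labels, with 2 that rose under the WT label (*Klf4*, *Nr4a2*) and 1 under the PkmΔDRE label (*Klf4*). *Egr2*, an EGR1 relative, fell by 4.44 and 4.20 on the log2 scale under the WT and PkmΔDRE labels, *Fosl1*, a further Fos subunit, by 3.66 and 4.28, and the zinc finger factor *Klf10* by 2.88 and 3.03. The list's median was −1.55 and −1.43. Of 14 immediate early genes that encode other proteins, 7 fell and 4 rose under the WT label and 8 fell and 4 rose under the PkmΔDRE label. *Zfp36*, which binds AU-rich elements and promotes decay of such messages, fell by 3.59 and 4.13, *Trib1*, a pseudokinase, by 3.44 and 3.61, and the kinase *Plk3* by 3.18 and 3.58. Those that rose were *Ier3*, *Sgk1*, *Ccn2* and *Plk2*.

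Of 13 MAP kinase phosphatases and ERK feedback inhibitors other than *Dusp1*, 10 were called lower at 8 h in labelled WT hepatocytes, against 16% of all genes, and 5 in labelled PkmΔDRE hepatocytes, against 5.5%. At 120 h 5 were lower and 1 higher under the WT label, and 6 lower and 2 higher under the PkmΔDRE label. *Dusp5*, a nuclear ERK phosphatase, fell by 4.64 and 4.75 on the log2 scale, and *Errfi1*, an inhibitor of the EGF receptor, by 2.61 and 2.55. *Dusp2*, a further nuclear phosphatase, fell by 4.19 under both labels. The AP-1 dimer partners were divided, with 3 lower and 3 higher of 9 tested under the WT label and 3 lower and 1 higher of 8 under the PkmΔDRE label. *Mafk* fell by 1.48 and 1.82 and *Atf4* by 1.47 and 1.39, while *Ddit3* rose by 1.09 and 1.18. Of 17 upstream kinases and SRF, TCF and CREB factors, 6 fell and 6 rose under the WT label and 5 fell and 6 rose under the PkmΔDRE label. *Srf*, serum response factor itself, fell by 2.55 and 2.73, while the ERK1 gene *Mapk3* rose by 2.34 and 2.40 and the ternary complex factor *Elk3* by 3.16 and 3.24. Of 10 genes of the MYC network, 5 fell and 1 rose under the WT label and 4 fell and 2 rose under the PkmΔDRE label. *Mga* rose by 2.62 and 2.21, and *Mxd3* fell by 2.60 and 1.82 and *Mxd1* by 2.05 and 1.398.

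The genes whose group means followed each member most closely were sought among 11501 genes, by Pearson's r of log2 CPM across the 36 groups. These values are descriptions, since the groups share the course of culture time. *Egr1* was most like *Fos* (r = 0.929), and *Fos* most like *Bco2* (0.945), *Amigo2* (0.936) and *Gadd45g* (0.935). *Fosb* was most like *Nr1d1* (0.971), *Jun* like *Cyp2c68* (0.955), *Jund* like *Hint2* (0.966), *Atf3* like *Ttc39c* (0.966), *Myc* like *Chic2* (0.957), *Ier2* like *Irf8* (0.92) and *Dusp1* like *Csrnp1* (0.94). *Junb* had the loosest best match of the 10, *Plac8* at 0.844. Among the members themselves *Jun* and *Atf3* were most alike (0.93).

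Reads were counted without regard to strand. *Junb* overlaps *Prdx2* (143.3 CPM on average), *Dusp1* overlaps *Ergic1* (207 CPM) and *Jun* overlaps *Junos* (0.902 CPM) on the opposite strand, so their values are uncertain where those genes overlap.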

How the data were processed

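RNA-seq was done on 144 libraries of primary mouse hepatocytes. The authors trimmed reads with Trimmomatic 0.39 after FastQC 0.11.3, aligned them to GRCm39 with STAR (2.7 per the labels) and deposited unnormalised counts of read pairs per gene, of which the unstranded column was used. Lines that name no gene held 16.8% to 48% of pairs and were left out. The protocol text and the sample characteristics give different plate formats, and no other processing of single libraries is stated.

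Gene symbols and exon lengths came from the GRCm38 annotation by Ensembl identifier, and 52083 of 55359 identifiers had a symbol. Counts were fitted with edgeR 4.0.16 (R 4.3.3) by robust quasi-likelihood, with TMM factors and filterByExpr (count minimum 10, total minimum 15). TCDD was compared with vehicle, and the labels with each other, from the libraries of 1 hour at a time. Culture time was fitted over the 9 hours of 1 label and treatment. P-values were adjusted over all genes by Benjamini-Hochberg, and a call needed an adjusted p-value below 0.05 and a fold of at least 1.5. Fold changes are from the fit and CPM from library sizes scaled over all libraries. The method was tested on simulated counts with 200 changed genes. The 10 members, the related lists and the markers were chosen with earlier results of these data known. The rule for named genes was the 10 members, and in each related list the 3 genes with the largest change at 120 h called in the same direction under both labels. In the lists of other immediate early genes, those that rose are also named, chosen after their values were seen. In the remaining lists not every gene that rose is named. Alternatives used DESeq2 1.42.0, sva 3.50.0 and limma 3.58.1.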

Additional observations from a re-analysis of the deposited data

Results flagged for a closer look

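Of the 360 combinations of member and group, 20 held a library whose gap to the next of the 4 passed Dixon's 95% critical value for 4 samples. Chance flags about 1 in 20 groups. In 14 the library was the highest of its group and in 6 the lowest, and 3 of the 20 were in the libraries labelled PkmΔDRE with vehicle that stood apart.

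In those, *Jund* was at 162 CPM at 96 h (nearest 63.6 CPM), and *Ier2* was at 43.6 CPM (nearest 80.4 CPM) and *Fosb* at 3.64 CPM (nearest 13.9 CPM) at 4 h. Both values of each pair are on the TMM scale, as are all those that follow.

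*Ier2* stood apart most often. It was at 123.4 CPM under the PkmΔDRE label with vehicle at 48 h (nearest 74.2 CPM), 127.1 CPM with TCDD at 8 h (nearest 69.5 CPM) and 57.7 CPM with TCDD at 96 h (nearest 42.5 CPM), where *Junb* was at 158 CPM in the same library (nearest 96.4 CPM). Under the WT label with vehicle it was at 62.1 CPM at 72 h (nearest 43.2 CPM) and at 70.8 CPM at 24 h (nearest 55.3 CPM), where *Jund* was at 72.2 CPM in the same library (nearest 52.7 CPM).

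*Myc* was at 142.1 CPM under the WT label with TCDD at 120 h (nearest 111.1 CPM), at 106 CPM with TCDD at 96 h (nearest 95.3 CPM) and, at the low end, at 78.7 CPM under the PkmΔDRE label with vehicle at 72 h (nearest 118.4 CPM). *Jun* was low under the WT label with TCDD at 4 h, at 190 CPM (nearest 260 CPM), and at 12 h, at 132.4 CPM (nearest 155 CPM), and high under the PkmΔDRE label with TCDD at 8 h, at 218 CPM (nearest 170.0 CPM). *Atf3* was at 591 CPM under the WT label with vehicle at 2 h (nearest 375 CPM) and at 228 CPM under the PkmΔDRE label with TCDD at 4 h (nearest 145 CPM). *Fosb* was at 68.2 CPM under the PkmΔDRE label with vehicle at 2 h (nearest 37.1 CPM), and *Egr1* was low under the WT label with vehicle at 48 h, at 11.9 CPM (nearest 25.9 CPM).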

How the results depend on the processing

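No paired analysis was possible because the labels give no replicate number, animal or batch. The falls relative to 2 h were the firmest result. The calls ran from 63 to 67 (WT label) and 61 to 72 (PkmΔDRE label) of 80 in vehicle, and from 67 to 76 and 58 to 74 with TCDD, when each library was left out in turn, and from 47 to 70, 49 to 75, 52 to 76 and 48 to 76 over the other alternatives. The lowest of these came on plain library totals, where *Junb* at 120 h in vehicle turned to 0.29 (WT label) and 0.33 (PkmΔDRE label). Among pairs called with TMM, the sign also turned there in vehicle for *Jund* at 96 h (WT label) and *Dusp1* at 48 h (PkmΔDRE label). With TCDD it turned for *Jund* at 96 h and 120 h (PkmΔDRE label). Plain totals and the sets without libraries that stood apart were chosen after the data were seen. No share of all genes is set beside the counts in this section.

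Steps between hours moved more. Under the WT label 13 became 7 in 1 fit of all libraries and 9 to 14 with a library left out. Under the PkmΔDRE label 7 became 4 with no filter on low counts, 21 in 1 fit of all libraries (15 lower, 6 higher) and 2 to 10 with a library left out. The 2 came without replicate 4 at 4 h, and 4 and 3 came without replicates 3 and 4 at 2 h.

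The 6 TCDD calls under the WT label became 0 with the GC trend removed, 3 in 1 fit of all libraries, 4 on plain totals, with 1 surrogate variable or with no filter (each of these lost 3 and gained *Junb* at 120 h) and 3 to 7 with a library left out (3 without vehicle replicate 2 or TCDD replicate 3 at 8 h). Under the PkmΔDRE label there were 0 in every fit that left out a library and 1, *Junb* at 72 h, with no filter. The difference in TCDD response had 0 calls in every such fit. The 1 call between labels became 2 on plain totals, 6 with DESeq2, 4 with no filter, 4 with a covariate for read pairs outside genes, 3 with the GC trend removed, 4 in 1 fit of all libraries, and 0 to 4 with a library left out. The 0 came without WT replicate 2 or PkmΔDRE replicate 3 or 4 at 12 h, the 4 without PkmΔDRE replicate 2 at 12 h, and 2 without WT replicate 4 at 12 h or PkmΔDRE replicate 4 at 8 h. Leaving out the fold threshold moved no count by more than 1.5 times. On plain totals 31 of 40 levels per length moved by more than 1 SD. The cause of these changes was not tested. Counts of *Fosb* down to 0 limit the precision of its late values.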
